A study of Sus scrofa with 12 samples.

Results

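The genes described here are the SMAD family, the intracellular messengers of the transforming growth factor β (TGFB) superfamily, and the SMURF ubiquitin ligases, which mark SMAD proteins and their receptors for degradation. The members were the rows of the deposited gene table with exactly the symbols SMAD1, SMAD2, SMAD3, SMAD4, SMAD5, SMAD6, SMAD7, SMAD9, SMURF1 and SMURF2. All 10 were found among the 29884 genes of the table, and all 10 passed the filter on low values that left 12260 genes for testing. Left ovaries of sows slaughtered 4 days after their delivery number 4 were compared between small litter size (SLS, 8.48 ± 0.53 piglets per litter in the design text, where ± is not named beside the values and the methods use SEM for results in general) and large litter size (LLS, 16.19 ± 0.43). Ovaries ZD2, ZD3 and ZD12 were SLS, and ovaries ZD5, ZD7 and ZD8 were LLS, with 1 library of total RNA without ribosomal RNA and 1 small RNA library per ovary. All sows came from a commercial herd and no treatment was given in the labels. The tissue was not sorted, so that every value is a mixture of follicles, luteal tissue, vessels and stroma.

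A ligand of this superfamily brings together type I and type II receptors, and the type I receptor adds phosphate to serines at the very end of a receptor-regulated SMAD. SMAD2 and SMAD3 carry the signal of TGFB, activin and, in the follicle, the oocyte factor GDF9, while SMAD1, SMAD5 and SMAD9 carry that of bone morphogenetic proteins (BMP) and anti-Müllerian hormone. SMAD4 is the partner shared by both branches, SMAD6 and SMAD7 are inhibitors, and SMURF1 and SMURF2 add ubiquitin to SMADs and, brought there by SMAD7, to the receptors. In the ovary these signals act on follicle growth, on granulosa cell survival and on steroid production.

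The ends of the coding sequences are shown first because they set the receptor-regulated SMADs apart from the others. They are the last 30 bases before the stop codon in the RefSeq models of Sscrofa11.1, with serine codons among the last 4 codons in capitals.
SMAD1: tcacctcacaatcctattTCGTCTgtgTCT
SMAD5: tcccctctgaaccccattTCTTCTgttTCA
SMAD9: tccccacacaacccgattTCTTCAgtgTCT
SMAD2: tccccttcagtgcgttgcTCAAGCatgTCA
SMAD3: tccccaagcatccgctgtTCCAGTgtgTCT
SMAD4: atgcctattgccgacccacagcctttagac
SMAD6: tggctcgagatccttctcaacaaccacaga
SMAD7: tgctggctggaggtcatcttcaacAGCcgg
The order serine, serine, any codon, serine closed 5 of the 8 SMAD genes and 28 of 19554 coding sequences of the annotation (0.143%). SMAD4 and SMAD6 had no serine codon among the last 4, and SMAD7 had 1.

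A site for the SMURF ligases is the proline and tyrosine (PY) motif in the linker of a SMAD, which the WW domains of the ligases bind. It was searched as codons in frame, 2 proline codons (CCN), any codon and a tyrosine codon (TAC or TAT), which 1307 of 19554 coding sequences held (6.68%). The matches are in capitals, with 9 bases of coding sequence on each side.
SMAD1: gatacacccCCACCTGCTTACctgcctcct
SMAD5: gatactcctCCTCCTGCCTATatgccacca
SMAD2: gaaacgccaCCTCCTGGATATatcagtgaa
SMAD3: gaaaccccaCCCCCGGGCTACctgagtgaa
SMAD6: gaatcaccgCCACCCCCCTACtctcggctg
SMAD7: gagtctcccCCTCCTCCTTACtccagatac
SMAD6 held 1 more match, near its end at codon 430 of 496. The stretches of SMAD2, SMAD3, SMAD6 and SMAD7 shown run across an exon junction. SMAD4 held no match, nor did the 430 codons of the SMAD9 model or the ligases themselves.

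The 10 genes lie on 6 chromosomes, and 5 of them are on chromosome 1. SMAD2 (chr1:97415360-97511388, minus strand), SMAD7 (chr1:98512800-98543924, minus strand) and SMAD4 (chr1:100521843-100633501, plus strand) follow each other, with 1001411 bases between SMAD2 and SMAD7 and 1977918 bases between SMAD7 and SMAD4. SMAD6 (chr1:164652602-164735084) and SMAD3 (chr1:164998457-165124455) are 263372 bases apart, both on the plus strand. The others are SMAD5 (chr2:138287635-138344092, plus strand), SMURF1 (chr3:6037732-6142569, minus strand), SMAD1 (chr8:82907557-82987909, minus strand), SMAD9 (chr11:12705652-12727981, minus strand) and SMURF2 (chr12:14368683-14492129, plus strand). The span of SMAD4 overlaps ELAC1 on the same strand, so that reads of SMAD4 and ELAC1 could be shared where their exons meet. SMAD1, SMAD3, SMAD4 and SMURF1 also overlap a gene on the opposite strand, and whether the counting used strand is not given in the sources used here. The SMAD9 model is a single transcript of 1378 bases with 1293 coding bases, so that its FPKM rests on fewer reads than a level of that size would in the other members. Between members the coding sequences of SMAD1 and SMAD5 were 76.1% identical over aligned bases, those of SMAD2 and SMAD3 74.96%, those of SMAD6 and SMAD7 63.4% and those of SMURF1 and SMURF2 69.2%. The longest run of identical bases between any SMAD pair or between the SMURF genes was 25 bases, between SMAD4 and SMAD7. It was searched over whole transcripts, untranslated parts included.

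The gene libraries held between 32272803 and 60903268 reads, ZD8 the fewest. ZD8 stands apart from the other 5 ovaries in what it contains. The summed level of 7 luteal markers was 124 FPKM (fragments per length of transcript and per total of mapped reads) in ZD8 and between 9167 and 12191 FPKM in the others, with 6 of the 7 lowest in ZD8 and none of them at 0 there. That of 6 theca markers was 539 FPKM in ZD8, where all 6 were highest, and between 42.9 and 137 FPKM in the others. That of 7 endothelial markers was 137 FPKM in ZD8 against 281 to 408. Of these 7, 5 were lowest in ZD8, while TEK and EMCN lay within the range of the other ovaries. Oocyte markers summed to between 97.8 and 188 FPKM in the 6 ovaries. Of the 9 in the table, 8 were highest and 1 was lowest in ZD8, although the sum there (156 FPKM) was not the highest. Only 4 of the 9 passed the filter on low values, and ZP2 and FIGLA were at 0 in at least 1 ovary. Of 5 T cell markers in the table, all 5 were highest in ZD8, with 14.6 FPKM in sum against 2.23 to 5.30. The SLS ovary ZD2 had the highest sums of stroma markers (6458 FPKM, against 1895 to 2943), smooth muscle markers (1802 FPKM, against 316 to 1114) and epithelial markers (54.1 FPKM, against 7.59 to 31.8). The summed level of 8 granulosa markers was between 654 and 1140 FPKM in SLS and between 191 and 531 FPKM in LLS, lowest in ZD8. INHA and NR5A2 were lowest in ZD8, while FSHR (10.8 FPKM, at most 4.501 in the others), AMH and FOXL2 of the same list were highest there. CYP19A1, the aromatase of growing follicles, was listed at 0 in all ovaries but ZD5. Results are therefore given with and without ZD8, and the part of these cell types in the results was not tested. In bulk tissue, fewer cells of a type and less RNA per cell cannot be told apart.

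Every member was detected in every ovary, from 486 reads for SMAD9 in ZD7 to 14345 reads for SMAD4 in ZD8, so that counting error is small beside the spread between ovaries. SMAD4, the shared partner, had the highest mean level of the family at 27.5 ± 11.8 FPKM (SD, n = 6 ovaries). It was followed by the BMP branch member SMAD5 (24.2 ± 6.88 FPKM), then by SMAD3 (18.6 ± 2.52 FPKM) and SMAD2 (18.3 ± 6.21 FPKM) of the TGFB branch. SMAD9 (11.8 ± 6.21 FPKM), SMURF2 (9.65 ± 1.95 FPKM), SMAD1 (7.97 ± 2.99 FPKM) and SMURF1 (7.05 ± 1.76 FPKM) formed the middle of the order. The inhibitors SMAD7 (3.26 ± 1.30 FPKM) and SMAD6 (2.47 ± 0.589 FPKM) were the lowest. Among neighbours in this order, SMURF1 was above SMAD7 in 6 of 6 ovaries and SMAD7 above SMAD6 in 6 of 6. SMAD5 was above SMAD3, SMAD2 above SMAD9 and SMURF2 above SMAD1 in 5 of 6 ovaries. The steps from SMAD4 to SMAD5, from SMAD3 to SMAD2 and from SMAD9 to SMURF2 held in 4 of 6 and that from SMAD1 to SMURF1 in 3 of 6. The ranges of all 9 neighbouring pairs overlapped over the 6 ovaries. These levels are per length of the longest annotated transcript, and a transcript model that is too short can shift a level.

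**Figure D1:**
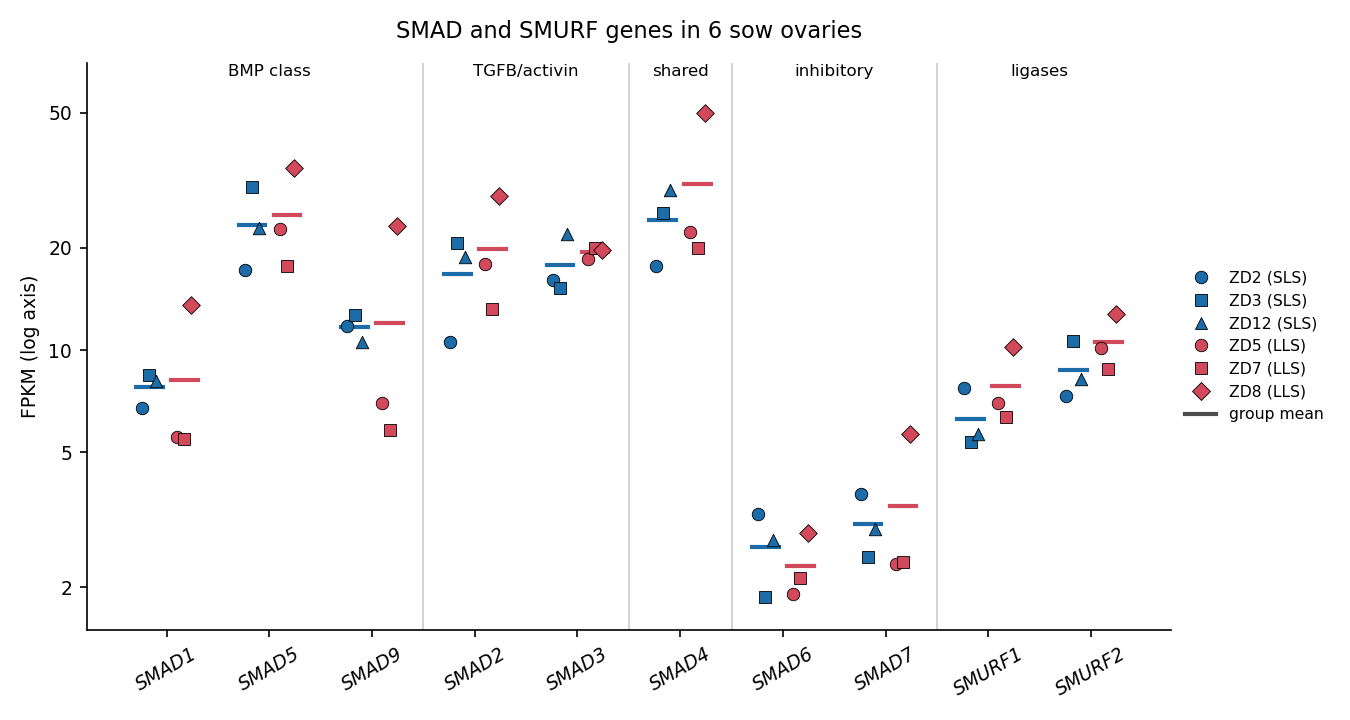
FPKM of the 10 SMAD and SMURF genes in each of the 6 ovaries (log axis), with 1 point per ovary, the SLS ovaries in blue, the LLS ovaries in red and bars at the group means. The LLS ovary ZD8 (red diamond) is the highest point for 8 of the 10 genes, and the points of SLS and LLS overlap for every gene.

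In the BMP branch, SMAD1 was at 6.77, 8.41 and 8.10 FPKM in ZD2, ZD3 and ZD12 (SLS) and at 5.54, 5.45 and 13.5 FPKM in ZD5, ZD7 and ZD8 (LLS). SMAD5 was at 17.2, 30.1 and 22.9 FPKM in SLS and at 22.7, 17.6 and 34.4 FPKM in LLS. SMAD9 was at 11.8, 12.7 and 10.5 FPKM in SLS and at 6.99, 5.79 and 23.3 FPKM in LLS. For SMAD1 and SMAD9 the LLS ovaries ZD5 and ZD7 lay below all SLS ovaries and ZD8 lay above them, so that the LLS values surround the SLS values. SMAD5 showed no such split. SMAD9 had the widest range of the family, 4.01 times from ZD7 to ZD8, although its 3 SLS values differed little (11.7 ± 1.08 FPKM, SD, n = 3).

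In the TGFB and activin branch, SMAD2 was at 10.6, 20.7 and 18.8 FPKM in the SLS ovaries and at 18.0, 13.2 and 28.4 FPKM in the LLS ovaries. SMAD3 was at 16.1, 15.2 and 22.0 FPKM in SLS and at 18.6, 19.9 and 19.7 FPKM in LLS. SMAD3 had the narrowest range of the family, 1.44 times from ZD3 to ZD12, and was as high in ZD8 as in ZD7. The ratio of SMAD2 to SMAD3 was therefore highest in ZD8 (1.44), next to ZD3 (1.36), and between 0.655 and 0.965 in the other 4 ovaries. SMAD4, the partner of both branches, was at 17.6, 25.4 and 29.6 FPKM in SLS and at 22.3, 19.99 and 49.9 FPKM in LLS, with ZD8 at 1.69 times the highest of the other ovaries.

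Of the inhibitors, SMAD6 was at 3.29, 1.87 and 2.75 FPKM in SLS and at 1.90, 2.13 and 2.90 FPKM in LLS. SMAD7 was at 3.76, 2.45 and 2.98 FPKM in SLS and at 2.34, 2.38 and 5.67 FPKM in LLS. In both genes ZD2 was the highest SLS ovary and ZD3 the lowest, and the ratio of SMAD7 to SMAD6 was between 1.08 and 1.31 in 5 ovaries and 1.96 in ZD8. Of the ligases, SMURF1 was at 7.72, 5.37 and 5.67 FPKM in SLS and at 6.96, 6.36 and 10.2 FPKM in LLS. SMURF2 was at 7.34, 10.6 and 8.23 FPKM in SLS and at 10.1, 8.81 and 12.8 FPKM in LLS. The SMURF genes ranked the SLS ovaries in opposite order, in that ZD2 had the most SMURF1 and the least SMURF2, and their ratio (SMURF2 to SMURF1) ran from 0.950 in ZD2 to 1.98 in ZD3. In the LLS ovaries this ratio was between 1.25 and 1.45.

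As shares of the summed FPKM of the 8 SMAD genes, the BMP class (SMAD1, SMAD5 and SMAD9) made up 40.1% ± 4.35 in SLS and 36.4% ± 3.38 in LLS (SD, n = 3 each). The TGFB and activin class (SMAD2 and SMAD3) made up 32.0% ± 2.29 and 34.2% ± 6.204, SMAD4 22.4% ± 2.53 and 24.6% ± 3.01, and the inhibitors 5.55% ± 2.28 and 4.78% ± 0.448. With all 6 ovaries, the 4 differences were within the spread of the ovaries, and the shares were given no test. Without ZD8, the share of SMAD2 and SMAD3 was 37.1% and 38.3% in LLS against 30.6%, 30.8% and 34.7% in SLS, without overlap. Their summed level did overlap, at 36.5 and 33.2 FPKM in ZD5 and ZD7 and between 26.7 and 40.8 FPKM in SLS. The separation was therefore one of share and not of level, and the shares of the other classes overlapped. The difference in the share of SMAD2 and SMAD3 was 5.71 percentage points in place of 2.14. That of the BMP class was then -5.44 points in place of -3.63, that of SMAD4 0.522 in place of 2.25 and that of the inhibitors -0.791 in place of -0.772. The summed level was 87.1, 117 and 118 FPKM in the SLS ovaries and 98.4, 86.5 and 178 FPKM in the LLS ovaries, so that ZD8 had the most SMAD mRNA for its depth. Its make-up also differed in that ZD8 had the largest share of SMAD4 (28.1%) and the smallest of SMAD2 and SMAD3 (27.0%).

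**Figure D2:**
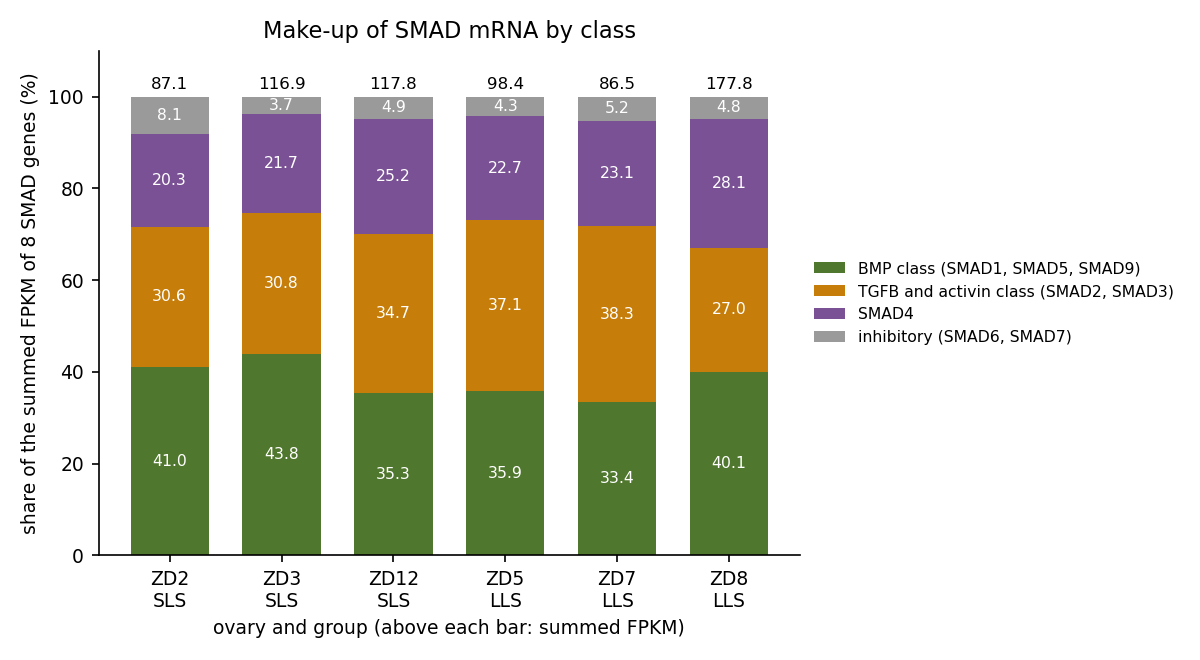
Share of the summed FPKM of the 8 SMAD genes (%) taken by each signalling class, with 1 bar per ovary and the summed FPKM above it. The BMP class takes between 33.4% and 43.8% in the 6 ovaries and the inhibitors between 3.69% and 8.10%, with the highest inhibitor share in the SLS ovary ZD2.

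The comparison of LLS with SLS asks whether the SMAD genes differ with litter size. Calls needed an adjusted p (Benjamini-Hochberg, limma) under 0.05 together with a log2 fold change over 1 in size. None of the 10 members was called, none had an unadjusted p under 0.05 and for none were the groups free of overlap. Of all 12260 genes 0% were called by limma. Of 12245 genes with recovered reads, edgeR's quasi-likelihood test called 0 and DESeq2 called 20, none of them a member. An unadjusted p under 0.05 was found for 1.76% of all genes by limma, and groups without overlap for 5.12% (LLS below SLS for 3.17%). In log2(FPKM + 1), LLS differed from SLS most for SMURF1, by 0.27 with a 95% confidence interval from -0.39 to 0.94. For SMURF2 it was 0.25 (-0.38 to 0.88), for SMAD4 0.24 (-0.66 to 1.14), for SMAD2 0.22 (-0.62 to 1.07) and for SMAD3 0.14 (-0.45 to 0.72). For SMAD5 and SMAD7 it was 0.07 each, with intervals from -0.70 to 0.84 and from -0.74 to 0.87. It was below 0 for SMAD1 (-0.04, -0.88 to 0.80), SMAD6 (-0.13, -0.79 to 0.54) and SMAD9 (-0.21, -1.28 to 0.87). The adjusted p by limma was 0.999 for all 10, and the exact two-sided permutation test gave p between 0.3 and 1, where 0.1 is the smallest that 3 ovaries against 3 allow. The intervals of SMAD2, SMAD4 and SMAD9 reach past 1 in size, so that a change by that much is not excluded for these genes. The scale understates fold changes of low genes, so that the intervals of low members such as SMAD6 and SMAD7 do not exclude it in FPKM either. The median over the members was 0.10 and that over all genes 0.02, and without ZD8 both were below 0, at -0.17 and -0.10.

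Without ZD8, 3 SLS ovaries were compared with 2 LLS ovaries, and again no member was called. SMAD9 was lower in both LLS ovaries than in all SLS ovaries, at 6.39 FPKM on average against 11.7, and the log2 difference was -0.78 (SE 0.24, interval from -1.33 to -0.23). Its unadjusted p was 0.00998 and its adjusted p 0.449 by limma, so that it did not pass the threshold, and the exact permutation p was 0.1, the smallest that this number of ovaries allows. SMAD1 (-0.43, interval from -0.98 to 0.12) and SMAD7 (-0.26, from -0.83 to 0.30) were also lower in both LLS ovaries than in all SLS ovaries. These 3 of 10 members stand against 11.5% of all genes whose LLS values all lay below the SLS values in the same 5 ovaries (7.53% lay above), and 1 of 10 with an unadjusted p under 0.05 against 5.92% (2.71% with LLS lower). The other differences were -0.25 for SMAD6, -0.18 for SMAD5, -0.16 for SMAD4, -0.06 for SMAD2, 0.09 for SMURF1, 0.12 for SMURF2 and 0.13 for SMAD3. SMAD2, SMAD4, SMAD5 and SMAD7 thus changed sign with ZD8 left out, while SMAD3, SMURF1 and SMURF2 were above 0 either way.

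**Figure D3:**
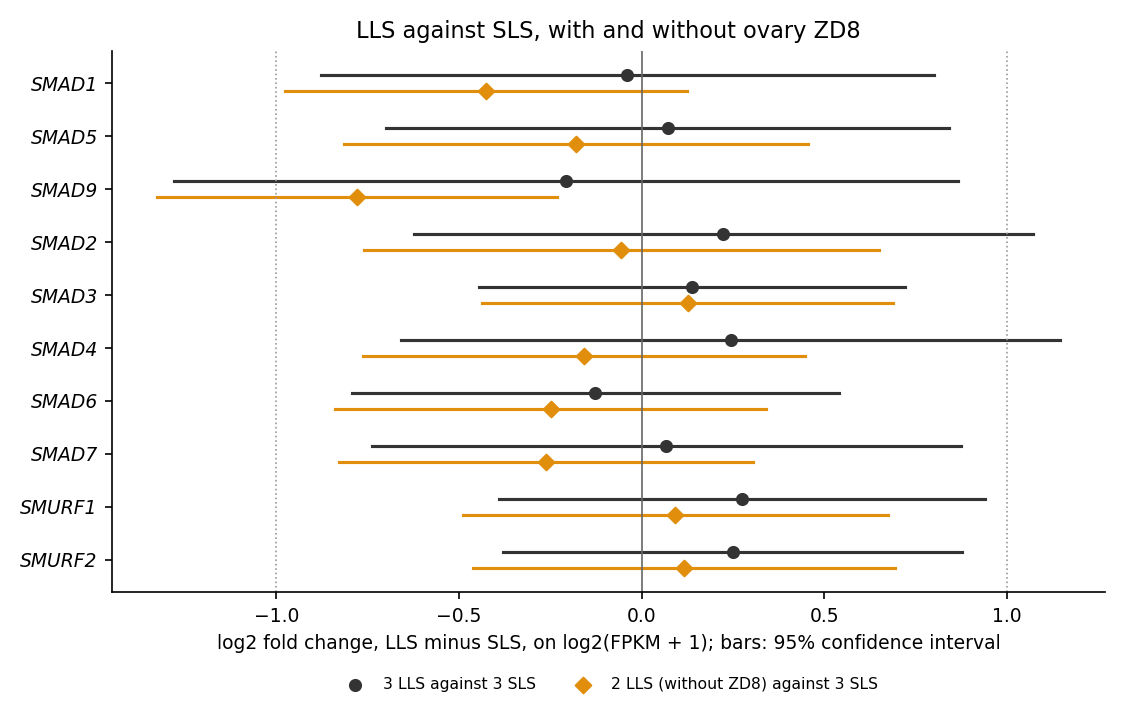
Difference of LLS from SLS for each SMAD and SMURF gene on the log2(FPKM + 1) scale, with bars at the 95% confidence interval, for all 6 ovaries (black circles) and for 5 ovaries without ZD8 (orange diamonds), with dotted lines at the fold change threshold of 1 in size. All black bars cross 0, and of the orange bars that of SMAD9 alone (-1.33 to -0.23) does not.

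The LLS values of most members ranged up to ZD8. Of the 10 members 8 were highest in ZD8 and 0 were lowest there, where 44.6% of all genes were highest and 26.3% lowest in ZD8. Against the mean of the other 5 ovaries, ZD8 was higher by 1.25 for SMAD9 on the log2(FPKM + 1) scale, by 1.11 for SMAD4, by 0.91 for SMAD1, by 0.83 for SMAD7 and by 0.80 for SMAD2. The deviation was 0.64 for SMAD5, 0.60 for SMURF1 and 0.47 for SMURF2, and it was small for SMAD6 (0.22) and SMAD3 (0.11). The median deviation of ZD8 was 0.72 over the members and 0.23 over all genes tested. The SD of the log2 values was larger in LLS than in SLS for 8 of the 10 members, as it was for 68.1% of all genes. The exceptions were SMAD3, with 0.27 in SLS and 0.05 in LLS, and SMAD6, with 0.30 and 0.22.

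**Figure D4:**
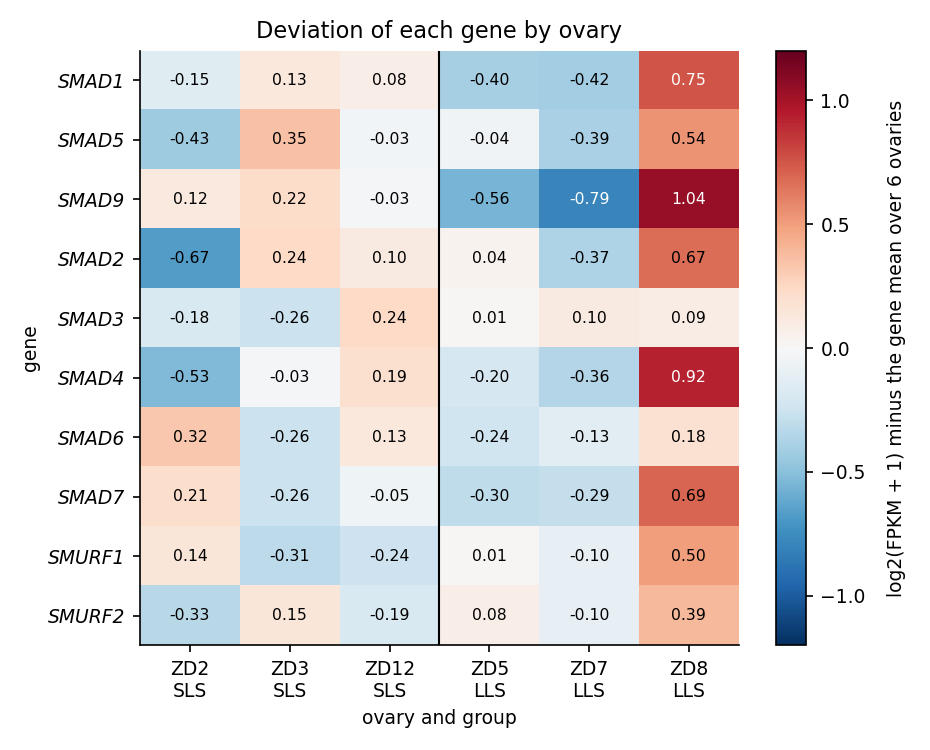
Deviation of each SMAD and SMURF gene from its own mean over the 6 ovaries, on the log2(FPKM + 1) scale, with 1 column per ovary and the LLS ovaries right of the line. SMAD9 runs from -0.79 in ZD7 to 1.04 in ZD8, while SMAD3 stays between -0.26 and 0.24.

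The other genes of the pathway were taken as 5 lists, and none of their 81 tested genes was called in either direction by limma. Of 16 receptors and TGFB ligands, 11 had a log2 fold change above 0 and 5 below, with a median of 0.08, beside 6446 above, 5814 below and a median of 0.02 over all genes. Without ZD8 the median of this list was -0.07, beside -0.10 over all genes. Of its 16 genes, 4 then lay lower in both LLS ovaries than in all SLS ovaries and 0 higher, beside 11.5% and 7.53% of all genes. In the same ovaries 3 of the 25 cofactor and trafficking genes lay lower and 1 higher. Of the 17 other ubiquitin ligases and deubiquitinases, 0 lay lower and 1 higher. TGFB3, a ligand of the TGFB receptors, was between 10.1 and 12.015 FPKM in SLS and at 4.22, 8.26 and 7.21 FPKM in LLS. All 3 LLS ovaries lay below all SLS ovaries, and the log2 difference was -0.71 (SE 0.30, unadjusted p = 0.0432 and adjusted p = 0.999 by limma), the only unadjusted p under 0.05 among the 81 genes, beside 1.76% of all genes. Together with KPNB1 and ID2 it was 1 of 3 of these genes whose groups did not overlap, all with LLS lower, beside 3.17% of all genes in that direction. AMHR2, the type II receptor of anti-Müllerian hormone, was at 6.16, 4.01 and 5.32 FPKM in SLS and at 1.51, 1.66 and 6.09 FPKM in LLS. As for SMAD9 and SMAD1, ZD5 and ZD7 were low and ZD8 was high, and without ZD8 the log2 difference of AMHR2 was -1.24 (adjusted p = 0.143 by limma). The type I receptor of TGFB, TGFBR1, chosen after its values were seen, was at 23.4, 54.3 and 20.6 FPKM in SLS and at 66.8, 52.1 and 17.4 FPKM in LLS. Here ZD8 was the lowest ovary, and without it the log2 difference was 0.96 in place of 0.39 (unadjusted p = 0.0313 and adjusted p = 0.729 by limma). BMPR1B, a type I receptor for BMP, was lowest in ZD8 at 3.22 FPKM, with a log2 difference of -0.69.

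Of 25 SMAD cofactors and trafficking genes, 15 were above 0 and 10 below, with a median of 0.06 that turned to -0.12 without ZD8. The nuclear import receptor KPNB1 had no overlap of the groups, with 57.2, 69.1 and 55.8 FPKM in SLS and 50.05, 53.1 and 48.0 FPKM in LLS, and a log2 difference of -0.26 (adjusted p = 0.999 by limma). RUNX2 (-0.61) and FOXO3 (0.36), transcription factors that join SMAD complexes, were furthest from the others in ZD8, RUNX2 with the lowest and FOXO3 with the highest value there. Of 17 other ubiquitin ligases and deubiquitinases that act on SMADs, 13 were above 0 and 4 below, with a median of 0.11 that fell to 0.00019 without ZD8. The 3 with the smallest p were the ligase NEDD4L (0.35), which marks activated SMAD2 and SMAD3, RNF111 (0.30), which marks SMAD7 and the repressors SKI and SKIL, and the deubiquitinase USP11 (0.34). None of the 17 passed an unadjusted p of 0.05, and NEDD4L was higher in both ZD5 and ZD7 (7.91 and 9.02 FPKM) than in the SLS ovaries (4.53, 5.91 and 6.47 FPKM) but not in ZD8 (5.67 FPKM).

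With all 6 ovaries, the direct targets of the pathway held no gene with an unadjusted p under 0.05. Of 9 BMP targets tested, 3 were above 0 and 6 below, with a median of -0.20. ID2, one of the inhibitors of DNA binding that BMP SMADs switch on, was at 18.8, 18.6 and 17.6 FPKM in SLS and at 14.7, 11.3 and 14.2 FPKM in LLS. The groups did not overlap, and the log2 difference was -0.43 (SE 0.24, adjusted p = 0.999 by limma). ID4 (-0.37) and MSX1 (-0.24) had the next smallest p of this list, with overlap of the groups. Of 14 TGFB and activin targets tested, 2 were above 0 and 12 below, with a median of -0.32. Here 9 of the 14 were lowest in ZD8, among them FSTL3, a binding protein of activin (25.1 FPKM in ZD8, 88.1 to 163 FPKM in the others), and CDKN1A, an inhibitor of cell division (22.2 FPKM, against 49.5 to 81.3). COL1A1, a collagen gene, was also lowest in ZD8 (377 FPKM) but highest in the SLS ovary ZD2 (3002 FPKM), with a log2 difference of -0.85. Without ZD8 the median of the TGFB and activin targets was 0.24 and that of the BMP targets -0.31, beside -0.10 over all genes tested in those 5 ovaries. Of the 14 TGFB and activin targets, 5 then lay higher in both LLS ovaries than in all SLS ovaries and 1 lower, where 7.53% of all genes lay higher and 11.5% lower. LTBP2, a binding protein of the extracellular matrix named after its values were seen, was the 1 gene of these 2 lists with an unadjusted p under 0.05 in those 5 ovaries, lower in LLS by a log2 difference of -1.07 (unadjusted p = 0.0141 and adjusted p = 0.517 by limma), and it was highest in ZD8.

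**Figure D5:**
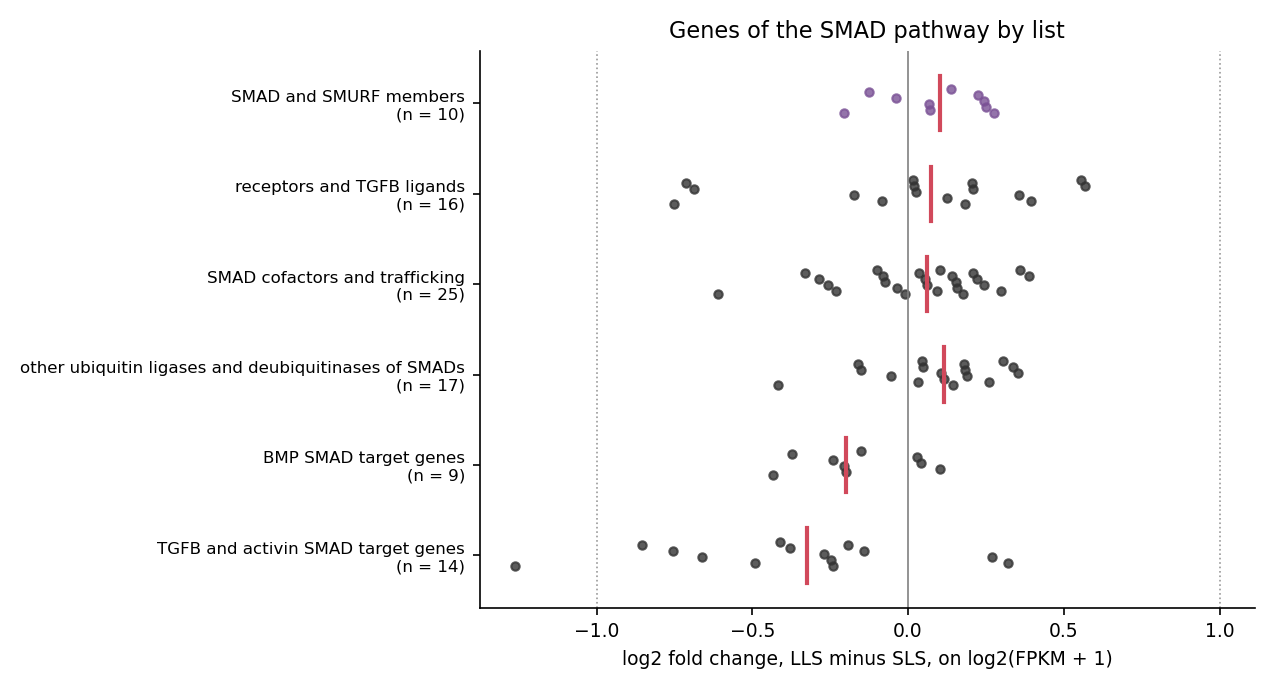
Difference of LLS from SLS on the log2(FPKM + 1) scale for the 10 SMAD and SMURF genes and for the tested genes of 5 other pathway lists, with 1 point per gene, red bars at the medians and dotted lines at 1 in size. The medians run from -0.32 for the TGFB and activin targets to 0.11 for the other ubiquitin ligases and deubiquitinases, and the points of every list lie on both sides of 0.

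For each member the gene of these lists with the most similar pattern was taken as that with the smallest root mean square difference of centred log2 values over the 6 ovaries, among 81 genes. SMAD7 was nearest to TOB2 (0.05), an antiproliferative protein, SMAD5 to the SMAD anchor LEMD3 of the inner nuclear membrane (0.06) and SMAD2 to the type I BMP receptor BMPR1A (0.07). ZFYVE9, which brings SMAD2 and SMAD3 to the receptor, was the nearest gene to SMAD4 (0.10) and to SMAD1 (0.12). SMAD6 was nearest to ID3 (0.11), SMURF2 to the ligase ITCH (0.14), SMURF1 to the deubiquitinase USP4 (0.18) and SMAD3 to the receptor TGFBR2 (0.19). SMAD9, the member with the widest range, was nearest to FOXO1 (0.28). The measure grows with a gene's own spread, so that its values are not compared between members. With 6 ovaries, 1 of which stands apart, such a likeness is a description only.

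The start regions of the members, 250 bases before to 50 bases after the annotated start, were searched on both strands for sequences to which SMADs bind. The palindrome GTCTAGAC, to which SMAD3 and SMAD4 bind, was found once, in SMAD7, 165 bases before its start (chr1:98544071-98544100, minus strand), and is shown in capitals.
SMAD7: agcgacagggtGTCTAGACggccacgtgac
The same letters were in 38 of 19559 start regions (0.194%). The shorter CAGAC, held by 45.0% of all start regions, was found in SMAD5 alone of the members, with 2 matches. The sequence GGCGCC, held by 19.8% of all, was in SMAD2, SMURF1 and SMURF2 with 1 match each and in SMAD5 with 2.

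The 6 miRNAs known or proposed to act on SMAD mRNAs are given with their sequences from the deposited small RNA table, where the seed (bases 2 to 8) is in capitals. miR-26a and miR-26b-5p share 1 seed.
miR-183: tATGGCACtggtagaattcactg
miR-26a: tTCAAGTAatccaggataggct
miR-26b-5p: tTCAAGTAattcaggataggtt
miR-224: cAAGTCACtagtggttccgttta
miR-21-5p: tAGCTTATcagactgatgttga
miR-145-5p: gTCCAGTTttcccaggaatccctt
In the annotated 3′ UTRs of the members, matches to the 7 bases of the seed of all but miR-21-5p were found in SMAD4. They are shown with the match in capitals, in the order in which they follow the stop codon.
SMAD4 and miR-145-5p: ctcccagcagacagaAACTGGAtt
SMAD4 and miR-183: ttattccaaaatattGTGCCATgt
SMAD4 and miR-26: gtttggatatttttgTACTTGAtt
SMAD4 and miR-224: tacttgatttgatgtGTGACTTtt
SMAD4 and miR-224, the next: tcatatcaattggcaGTGACTTtg
The match for miR-183 lies 469 bases after the stop codon (chr1:100627167-100627190, plus strand), and that for miR-26 at 1035 bases is followed by the first for miR-224 at 1050 bases. SMAD1 held 2 matches for miR-26, SMAD7 held 1 for miR-21-5p, and SMAD2, SMAD5 and SMURF2 held 1 each for miR-183. SMAD2 and SMAD5 also held 2 matches each for miR-145-5p and 1 each for miR-224. The annotated 3′ UTR of SMAD4 is 6788 bases long and that of SMAD2 8638 bases, beside a median of 850 bases over 18088 genes, of which between 7.16% and 11.6% held a match to each seed. SMAD3, SMAD6, SMAD9 and SMURF1 held no match, and their annotated 3′ UTRs are between 69 and 2783 bases long.

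None of these miRNAs was called between LLS and SLS, and 0% of the 353 miRNAs tested were. The groups of none of the 6 were free of overlap, beside 2.83% of all miRNAs. miR-183 was at 84.6, 105 and 51.5 RPM (reads scaled to the library total) in SLS and at 184, 266 and 7.37 RPM in LLS, so that ZD5 and ZD7 lay above all SLS ovaries and ZD8 below them. The log2 difference of miR-183 was -0.07 with all ovaries and 1.51 without ZD8 (adjusted p = 0.764 by limma). miR-26a, the most abundant of the 6 in ZD8, was at 75829, 107840 and 207172 RPM in SLS and at 102057, 93190 and 252876 RPM in LLS (log2 difference 0.17). miR-224 was at 29.6, 31.9 and 10.05 RPM in SLS and at 17.7, 13.3 and 3.80 RPM in LLS (-1.04). miR-26b-5p (0.10), miR-21-5p (-0.32) and miR-145-5p (-0.12) differed by less than their spread. The adjusted p by limma was 0.997 for all 6. In ZD8, where SMAD4 was highest, miR-183, miR-224 and miR-21-5p were lowest and miR-26a, miR-26b-5p and miR-145-5p highest of the 6 ovaries, beside 39.9% of all miRNAs lowest and 15.9% highest there.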

How the data were processed

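The authors trimmed the gene reads with NGSQCToolkit, mapped them to Sscrofa11.1 with HISAT2 and deposited FPKM values per gene, with the counting program not given in the sources used here. The samples whose titles end in rep were taken as the small RNA libraries, from the naming of the deposited table, the study's methods and the mapper, since the labels do not state it. The authors mapped the reads of those samples with BWA, per the labels, and deposited the reads of each miRNA relative to its library's total (RPM, named TPM in the table). All value columns of both tables were used. The members and gene lists were chosen with earlier results of these data known. Named beside the members were, of each list, the 3 genes with the smallest p, the gene most like each member, and 6 miRNAs.

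From the FPKM values, whole reads came out for 23477 of 23546 genes (99.7%, tolerance 0.001) with the longest RefSeq transcript, and from the RPM values for 2618 of 2618 (tolerance 0.01), which gives depths of 32272803 to 60903268 and 3537619 to 9854086 reads. The main test was limma 3.58.1 in R 4.3.3 with a variance trend on log2(value + 1), a scale that understates fold changes of low genes, for features with at least 1 FPKM or RPM in at least 3 libraries. The fit was tested on simulated data. Intervals are at 95%. The ovaries are single animals, so that p-values measure the spread between sows. edgeR 4.0.16 and DESeq2 1.42.0 on the recovered reads, array weights, other scalings, filters and pseudocounts, and leaving out each ovary were the alternatives. Sequences were read with pysam 0.24.0 and aligned with Biopython 1.88, taking for each gene the transcript with the longest coding sequence. CCN2 was tested under its older symbol CTGF. Genes listed but below the filter were not tested. circRNA junctions were not analysed here.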

Additional observations from a re-analysis of the deposited data

How the results depend on the processing

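None of the 10 members was called in any of the 17 alternative fits, and no gene of the other pathway lists was called except TGFB3, the 1 gene of them with an unadjusted p under 0.05 in all 6 ovaries. Over all genes, 0 were called by limma, 13 with array weights, 20 by DESeq2, 216 at an unadjusted p under 0.05, and between 0 and 20 with 1 ovary left out, where 20 were called without ZD8 and 0 without any other. Array weights moved the median of all genes to -0.12 on the log2 scale and turned SMAD2 to -0.0033, SMAD4 to -0.16, SMAD5 to -0.088 and SMAD7 to -0.27. They also moved SMAD9 from -0.21 to -0.68 (unadjusted p = 0.0143 and adjusted p = 0.323 by limma) and SMAD1 from -0.04 to -0.38, while edgeR gave -0.042 for SMAD9. SMAD1 turned to 0.027 by edgeR and to 0.0069 by DESeq2. The cause of these turns was not tested.

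When ovaries were left out 1 at a time, the log2 difference ran from -0.43 to 0.16 for SMAD1, from -0.058 to 0.47 for SMAD2, from 0.04 to 0.29 for SMAD3, from -0.16 to 0.48 for SMAD4 and from -0.18 to 0.28 for SMAD5. It ran from -0.29 to 0.0029 for SMAD6, from -0.26 to 0.24 for SMAD7, from -0.78 to 0.14 for SMAD9, from 0.09 to 0.41 for SMURF1 and from 0.12 to 0.38 for SMURF2. SMAD3, SMURF1 and SMURF2 kept their sign in every alternative. For the miRNAs it ran from -0.99 to 1.51 for miR-183, from -0.29 to 0.57 for miR-26a, from -0.48 to 0.51 for miR-26b-5p, from -1.55 to -0.45 for miR-224, from -0.91 to 0.70 for miR-21-5p and from -0.66 to 0.50 for miR-145-5p. Without ZD8 came the lowest value of SMAD1, SMAD4, SMAD5, SMAD7, SMAD9, SMURF1, SMURF2, miR-26a, miR-26b-5p and miR-145-5p and the highest of miR-183, miR-224 and miR-21-5p. The difference in class share ran from 0.0637 to 5.71 percentage points for SMAD2 and SMAD3 (highest without ZD8, lowest without ZD7) and from -1.70 to 0.502 for the inhibitors, above 0 only without ZD2. It ran from -6.0 (without ZD12) to -1.73 (without ZD3) for the BMP class and from 0.522 (without ZD8) to 3.65 (without ZD12) for SMAD4, with 1.19 without ZD2. With 3 ovaries in a group, only large and even changes can pass the threshold. No paired analysis was possible because the ovaries are from different sows, and the labels number no replicates that SLS and LLS would share.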
